A study of Mus musculus with 24 samples.

Results

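Globins and other genes of the red cell lineage were followed in the neural retina and the eye cup of mice with and without induced PRDM13. The list held 9 genes, the adult globins Hba-a1, Hba-a2, Hbb-bs and Hbb-bt and the non-globin genes Alas2, Slc4a1, Ahsp, Bpgm and Slc25a37, and 8 of them were found by symbol among the 56748 genes of the deposited table. Ahsp was not analysed here. The genes were chosen because globin counts in PRDM13-OE mice given doxycycline (dox) were close to 0 in these same libraries, so every comparison of these genes with that group is given as a description, without a p-value.

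RNA was sequenced from both tissues of 12 mice, giving 24 libraries in 8 groups of 3. PRDM13-OE mice are heterozygous for a knock-in at the Rosa26 locus, 1 copy of a human PRDM13 transgene with an HA tag under a dox-responsive promoter, with the dox-dependent activator driven by the ubiquitous EF-1α promoter, so that induction is not limited to the eye. The controls are wildtype littermates without the transgene, on the same C57BL/6J background. PRDM13-OE untreated mice carry the transgene and received no dox. PRDM13-OE mice with dox are also called mice with induced PRDM13 here, and the transcript of the human transgene itself was not analysed here. The groups with dox, of either genotype, drank water with 2 mg/mL dox and 10% sucrose for 72 hours, starting soon after weaning age, so dox and sucrose cannot be told apart. The eye cup is what is left of the eye after the retina is taken out and holds the retinal pigment epithelium (RPE), choroid and sclera. The labels state no perfusion of the vessels.

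Red blood cells carry haemoglobin, a tetramer of α and β globin chains around haem. A mature mouse red cell has no nucleus and makes no new transcripts, whereas reticulocytes, the young red cells that have just entered the circulation, still hold globin mRNA and the remains of other erythroid transcripts. Globin mRNA in a solid tissue is therefore commonly read as the blood held in its vessels, and the choroid of the eye cup is one of the most densely perfused vascular beds of the body.

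The α globin genes lie on chromosome 11 (GRCm39), Hba-a1 (ENSMUSG00000069919) at chr11:32233511-32234465 and Hba-a2 (ENSMUSG00000069917) at chr11:32246489-32247298, both on the plus strand. The β globin genes lie on the minus strand of chromosome 7, Hbb-bs (ENSMUSG00000052305) at chr7:103475741-103477303 and Hbb-bt (ENSMUSG00000073940) at chr7:103461731-103463203. All are annotated as protein coding. The members of each pair are near copies. Of the 100-base windows of the Hba-a1 transcript, 70.1% also occur in that of Hba-a2, and 58.6% of those of Hbb-bs occur in Hbb-bt. The division of reads within a pair is therefore uncertain, while the sum of a pair is less affected.

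Among the other members, Alas2 (ENSMUSG00000025270, chrX:149330371-149353634, plus strand) encodes the erythroid form of the first enzyme of haem synthesis. Slc4a1 (ENSMUSG00000006574, chr11:102239650-102257029, minus strand) encodes band 3, the anion exchanger of the red cell membrane. Bpgm (ENSMUSG00000038871, chr6:34453142-34482548, plus strand) encodes bisphosphoglycerate mutase, which makes the 2,3-bisphosphoglycerate that lowers the oxygen affinity of haemoglobin. Slc25a37 (ENSMUSG00000034248, chr14:69479297-69522561, minus strand) encodes mitoferrin, which brings iron into mitochondria.

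The 250 bases upstream of the start were read from RefSeq (GRCm38.p6) for 6 of the 9 genes, and 5 are shown because Hba-a1, Hbb-bs, Hbb-bt and Alas2 were low in PRDM13-OE mice given dox and Bpgm was not. Each is written 5′ to 3′ along the gene's own strand, with letters matching a motif on either strand in capitals. The GATA motif was searched as AGATAA or as its variant TGATAA. The CACCC motif was searched with the letters CCNCNCCC, the CCAAT box by those letters, and the TATA box with the letters ATATAA.
Hba-a1, chr11:32283422-32283671, plus strand: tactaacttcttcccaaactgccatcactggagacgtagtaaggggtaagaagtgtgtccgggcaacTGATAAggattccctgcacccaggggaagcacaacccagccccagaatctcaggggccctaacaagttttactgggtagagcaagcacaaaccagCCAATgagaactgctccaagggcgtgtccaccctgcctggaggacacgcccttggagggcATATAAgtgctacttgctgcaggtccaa
Hbb-bs, chr7:103827929-103828178, minus strand: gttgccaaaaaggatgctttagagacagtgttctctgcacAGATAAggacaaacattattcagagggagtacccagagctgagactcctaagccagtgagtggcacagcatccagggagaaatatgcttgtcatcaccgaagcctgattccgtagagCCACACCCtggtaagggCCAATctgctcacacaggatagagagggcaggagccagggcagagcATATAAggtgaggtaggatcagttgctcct
Hbb-bt, chr7:103813924-103814173, minus strand: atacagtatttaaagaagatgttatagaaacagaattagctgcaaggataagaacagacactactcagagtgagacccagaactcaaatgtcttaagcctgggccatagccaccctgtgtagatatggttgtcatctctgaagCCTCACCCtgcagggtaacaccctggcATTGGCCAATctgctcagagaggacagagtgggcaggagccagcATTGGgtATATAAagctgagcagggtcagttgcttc
Alas2, chrX:150547167-150547416, plus strand: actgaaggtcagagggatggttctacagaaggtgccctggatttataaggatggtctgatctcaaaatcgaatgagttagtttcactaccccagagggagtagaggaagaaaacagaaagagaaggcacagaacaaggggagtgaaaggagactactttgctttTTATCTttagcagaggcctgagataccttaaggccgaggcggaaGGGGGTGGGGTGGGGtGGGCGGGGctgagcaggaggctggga
Bpgm, chr6:34476106-34476355, plus strand: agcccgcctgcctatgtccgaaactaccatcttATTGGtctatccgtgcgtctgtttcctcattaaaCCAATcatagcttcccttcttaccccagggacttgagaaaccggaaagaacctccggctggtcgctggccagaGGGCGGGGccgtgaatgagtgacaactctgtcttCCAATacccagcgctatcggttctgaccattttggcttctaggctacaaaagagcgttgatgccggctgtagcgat
Hba-a1 and Hbb-bs each hold 1 GATA, 1 CCAAT and 1 TATA match, and Hbb-bs also holds 1 CACCC match. Hbb-bt, as low as they were, holds no GATA match, 3 CCAAT matches, 1 CACCC and 1 TATA match. Alas2 holds 1 GATA match and 4 CACCC matches, some of which overlap, and Bpgm holds 3 CCAAT matches and 1 CACCC match. Of 32851 RefSeq promoters of this length, 16.6% hold a GATA match, 45.9% a CACCC match, 33.8% a CCAAT match and 9.10% a TATA match, so a single match of the commoner motifs sets no gene apart, and no motif was held by every low gene and not by Bpgm. The windows of Hba-a1 and Hba-a2 are identical over 247 bases after an offset of 3 bases. A match of letters is not evidence that a factor binds there.

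Between 16034800 and 21513207 reads per retina and between 15825059 and 24908314 per eye cup were counted on genes. Levels are given as CPM, the gene's counts relative to all counts of the library in units of 1e6, scaled with edgeR's TMM factors within each tissue. The eye cups carried the RPE genes Rpe65 and Ttr, which define the tissue. Wildtype untreated eye cup 1 stands apart, with 76687 counts on the 4 globins, or 0.326% of its reads (exact 95% interval 0.324 to 0.329, counting error only), and results that rest on it are also given without it or library by library. By the count of Xist, transcribed from the inactive X chromosome, 3 of 3 PRDM13-OE mice with dox, 2 of 3 untreated PRDM13-OE mice, 2 of 3 wildtype mice with dox and 1 of 3 untreated wildtype mice were female.

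In the retina, the 4 globins together were at 0.591 to 1.02 CPM in PRDM13-OE mice with dox, from 10 to 19 counts per library, and at 21.0 to 75.5 CPM in the other 9 retinas. Hba-a1 counts were 6, 5 and 9 in PRDM13-OE mice with dox, compared with 190, 586 and 230 in wildtype mice with dox. Untreated retinas had 407, 193 and 273 Hba-a1 counts in PRDM13-OE and 530, 143 and 244 in wildtype mice. The highest PRDM13-OE retina with dox was thus below the lowest of the other 9, and those 9 overlapped one another across genotype and treatment. Hbb-bs counts were 2, 8 and 7 with induced PRDM13. In the other groups they were 291, 651 and 301 (wildtype dox), 502, 233 and 324 (PRDM13-OE untreated) and 756, 212 and 321 (wildtype untreated). The order of the groups without induction again had no consistent direction. Hbb-bt had 2, 0 and 3 counts with induced PRDM13 and 18 to 109 in the other 9 retinas. Hba-a2 had 0 counts in all 3 libraries and 11 to 83 counts in the other 9.

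Eye cups held far more globin mRNA, and the same 4 genes summed to 11.1 to 11.4 CPM in PRDM13-OE mice with dox, from 195 to 242 counts per library. The other 9 eye cups spanned 234 to 3377 CPM. Hba-a1 was at 5.80, 5.12 and 6.08 CPM in PRDM13-OE mice with dox whereas wildtype mice with dox had 102, 226 and 266 CPM. Untreated eye cups were at 235, 327 and 635 CPM (PRDM13-OE) and 1619, 338 and 247 CPM (wildtype). These 3 libraries with induced PRDM13 lay close together, whereas the untreated wildtype group was spread widely by its first eye cup. Hbb-bs was at 4.33, 4.66 and 4.67 CPM with induced PRDM13. It was at 105, 215 and 225 CPM in wildtype mice with dox, at 250, 239 and 366 CPM in untreated PRDM13-OE mice and at 1339, 299 and 187 CPM in untreated wildtype mice. Hba-a2 and Hbb-bt had 9 to 17 and 2 to 8 counts per library with induced PRDM13, and at least 215 and 262 in every other eye cup, so that no globin overlapped between the groups in either tissue.

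**Figure D1:**
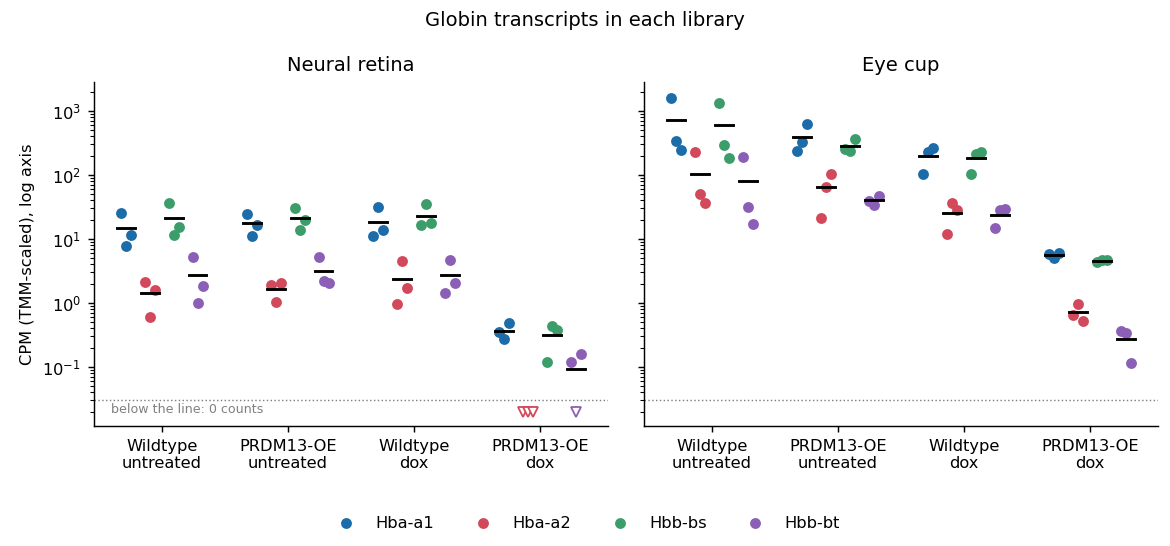
CPM of the 4 adult globins in each library (points, log axis) of the 4 groups in retina and eye cup, with black bars at group means of 3 libraries and open triangles below the dotted line for libraries with 0 counts. In both tissues the 3 PRDM13-OE libraries with dox lie below all 9 other libraries for each globin, and Hba-a2 has 0 counts in all 3 such retinas.

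As log2-fold changes, the retinal difference between PRDM13-OE and wildtype mice with dox was −5.63 (SE 0.49) for Hba-a1, −6.17 (SE 0.41) for Hbb-bs and −4.79 (SE 0.68) for Hbb-bt. These are 49.5, 72.1 and 27.7-fold lower levels. For Hba-a2, which had 0 counts, the level was at least 43.6-fold lower, taking 3 counts over the group as the limit. Wildtype dox retina 2 had the highest globin counts of its group, and without it Hba-a1 was at −5.03, Hbb-bs at −5.75, Hbb-bt at −4.14 and the limit for Hba-a2 at 24.01-fold. Without any 1 PRDM13-OE retina with dox that limit was 28.5 to 29.9-fold, and without PRDM13-OE dox 3 Hbb-bt was at −5.44. Against untreated PRDM13-OE retinas the log2-fold changes were −5.54 (SE 0.35), −6.05 (SE 0.39) and −4.98 (SE 0.63), and Hba-a2 was at least 29.9-fold lower, or 19.5 to 20.5-fold without 1 PRDM13-OE retina with dox. Hbb-bt was at −5.62 there without PRDM13-OE dox 3. Both comparisons share the PRDM13-OE retinas with dox and are not independent of each other.

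The eye cup gave differences of similar size. PRDM13-OE compared with wildtype mice with dox had log2-fold changes of −5.07 (SE 0.42) for Hba-a1, −5.10 (SE 0.51) for Hba-a2, −5.27 (SE 0.37) for Hbb-bs and −6.33 (SE 0.51) for Hbb-bt. Against untreated PRDM13-OE eye cups they were −6.14 (SE 0.48), −6.48 (SE 0.70), −5.97 (SE 0.31) and −7.14 (SE 0.46), with Hba-a2 at −5.87 without untreated PRDM13-OE 3. Among female mice alone, which leaves out 1 wildtype library, Hba-a1 and Hbb-bs were still at −4.77 and −5.05 compared with wildtype dox in the eye cup, and Hbb-bs at −6.32 in the retina. In bulk tissue, fewer red cells and less globin mRNA in each red cell cannot be told apart.

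Alas2 followed the globins in direction, by a smaller factor. In the retina it had 2, 1 and 3 counts in PRDM13-OE mice with dox, compared with 19, 42 and 23 in wildtype mice with dox, 27, 4 and 29 in untreated PRDM13-OE mice and 58, 12 and 20 in untreated wildtype mice. The 3 libraries were the lowest of the 12, next to the untreated PRDM13-OE retina with 4 counts. The log2-fold change was −3.74 (SE 0.51) against wildtype dox and −3.37 (SE 0.76) against PRDM13-OE untreated. From the summed counts alone, the level was 14.2-fold lower than with wildtype dox (exact 95% interval 6.26 to 39.8, counting error only).

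Eye cups held more Alas2, which was not called there. Alas2 was at 2.99, 3.18 and 1.05 CPM in PRDM13-OE mice with dox and at 4.11, 8.67 and 10.7 CPM in wildtype mice with dox. Untreated mice had 12.6, 12.4 and 13.6 CPM (PRDM13-OE) and 82.7, 11.2 and 4.01 CPM (wildtype). The groups with dox did not overlap, although the lowest wildtype eye cup was near the highest PRDM13-OE one. The log2-fold change was −1.63 (SE 0.54), a 3.10-fold lower level, against wildtype dox and −2.41 (SE 0.47) against untreated PRDM13-OE. In female mice alone it was −1.31 (SE 0.59) against wildtype dox.

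Slc4a1 was too sparse in the retina to compare, with 0 counts in every PRDM13-OE retina with dox and 0 to 4 counts in every other retina. Eye cups of PRDM13-OE mice with dox had 1, 0 and 0 counts, wildtype mice with dox had 2, 6 and 5, untreated PRDM13-OE mice had 14, 16 and 36, and untreated wildtype mice had 80, 2 and 0. The level was 11.9-fold lower than with wildtype dox by counts, with an exact 95% interval of 1.79 to 505 (counting error only), and 70.7-fold lower than in untreated PRDM13-OE mice (12.3 to 2834). Those intervals are wide because a single count stands for the group. An untreated wildtype eye cup without any Slc4a1 count shows that 0 also occurs without induction.

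Bpgm did not follow the globins. In the retina it was at 85.3, 89.2 and 81.2 CPM in PRDM13-OE mice with dox, above the 73.3, 79.3 and 75.1 CPM of wildtype mice with dox. Untreated retinas ranged from 72.8 to 84.3 CPM. The log2-fold change was 0.16 (SE 0.06) against wildtype dox and 0.14 (SE 0.07) against PRDM13-OE untreated, both small beside the globin differences. Its eye cup levels of 38.6, 38.8 and 60.6 CPM overlapped those of wildtype mice with dox (56.5, 58.4 and 51.2 CPM), with a log2-fold change of −0.21 (SE 0.21).

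Slc25a37 lay close to the other groups in the retina and below them in the eye cup. Its retinal levels with induced PRDM13, 14.2, 18.6 and 16.7 CPM, overlapped wildtype dox at 13.8, 15.5 and 14.1 CPM, with a log2-fold change of 0.18 (SE 0.11). Eye cups with induced PRDM13 were at 15.0, 12.4 and 13.5 CPM, below wildtype dox at 19.8, 17.8 and 18.1 CPM and below untreated PRDM13-OE at 20.5, 20.9 and 35.2 CPM. The log2-fold changes there were −0.38 (SE 0.20) and −0.91 (SE 0.30). Whether the difference itself changed with tissue was not tested.

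**Figure D2:**
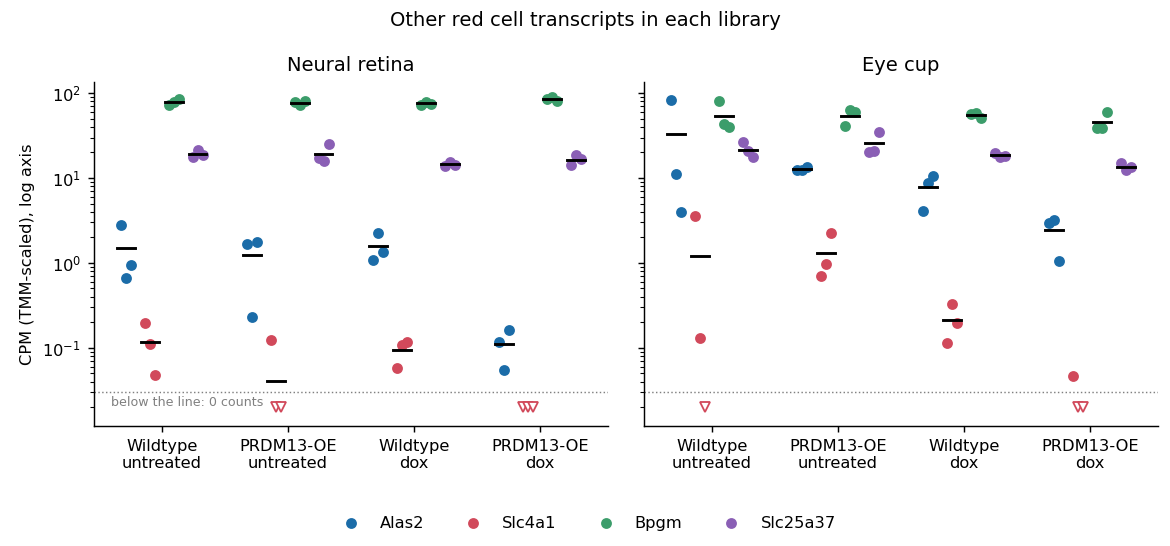
CPM of Alas2, Slc4a1, Bpgm and Slc25a37 in each library (points, log axis) of the 4 groups in retina and eye cup, with black bars at group means of 3 libraries and open triangles below the dotted line for 0 counts. Alas2 is lowest in PRDM13-OE mice with dox in both tissues, whereas Bpgm stays between 38.6 and 89.2 CPM in all 24 libraries.

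Calls required an edgeR adjusted p-value below 0.05 together with a log2-fold change larger than 1. In the retina, 5 of the 7 members that passed the filter of 10 counts were called lower against wildtype dox (the globins and Alas2) and 0 higher, where 1.5% of all genes tested were called lower and 0.905% higher. The same 5 of 7 were called lower against PRDM13-OE untreated, with 0.621% of all genes lower and 0.417% higher. Alas2 lost that second call without any 1 of the 3 PRDM13-OE retinas with dox and without untreated PRDM13-OE 1 or 3, while the globins kept theirs. Eye cups gave 3 of 8 called lower in either comparison (Hba-a1, Hbb-bs and Hbb-bt) and 0 higher. Of all genes there, 0.0138% were called lower and 0.0046% higher against wildtype dox, and 0.0139% lower and 0% higher against PRDM13-OE untreated. The first of these shares rests on PRDM13-OE dox eye cup 3, without which 5.74% of all genes were called lower and 2.58% higher, and 4 of 8 members lower. These 3 eye cup calls became 0 without PRDM13-OE dox 1 or 2 in either comparison, and without wildtype dox 2 or 3 in the first. Groups did not overlap for 5 lower and 1 higher member of 7 in the retina against wildtype dox, where 15.4% and 16.4% of all genes were so separated. All members but Bpgm, 7 of 8, were lower without overlap in the eye cup in both comparisons, beside 8.46% of all genes against wildtype dox and 4.94% against PRDM13-OE untreated. Since these members were chosen from this very contrast, the counts are a description of the choice.

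The median over the 4 globins was −5.90 on the log2 scale in the retina against wildtype dox and −5.80 against PRDM13-OE untreated, beside 0.01 and 0.00418 over all genes tested. Eye cups had −5.18 and −6.31, beside 0.05 in both over all genes. The non-globin members that passed the filter were too unlike each other for a median, from −3.74 (Alas2) to 0.18 (Slc25a37) in the retina against wildtype dox.

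The ratio of Alas2 to Hbb-bs counts in the same library does not depend on depth or scaling. In the 9 other eye cups, 2.15 to 6.18 Alas2 counts (median 4.03) were found per 100 Hbb-bs counts. The 3 eye cups with induced PRDM13 had 69.1, 68.3 and 22.5, from 139 Alas2 and 256 Hbb-bs counts in all. Alas2 was thus less reduced than Hbb-bs in each of them. The retinas gave 100, 12.5 and 42.9 against 1.72 to 8.95 (median 6.45) in the other 9, but from only 6 and 17 counts. Both genes were used in choosing the members, and the ratio carries no test.

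**Figure D3:**
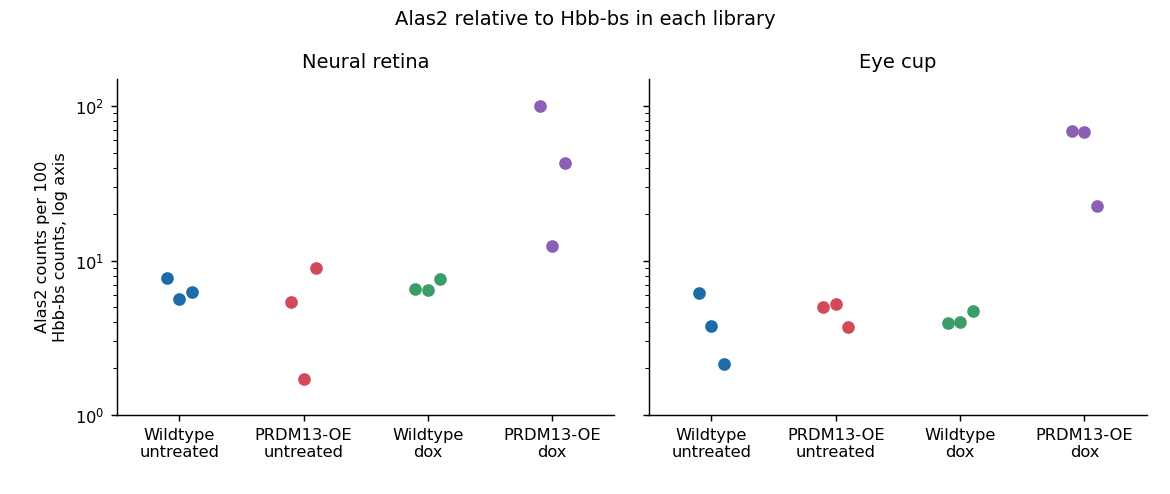
Alas2 counts per 100 Hbb-bs counts in each library (points, log axis) of the 4 groups in retina and eye cup. The 3 PRDM13-OE eye cups with dox, at 22.5 to 69.1, lie above the 2.15 to 6.18 of the other 9, and the 3 retinas at 12.5 to 100 rest on 6 Alas2 counts.

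The balance of α and β chains in the eye cup was close to that of the other libraries. Hba-a1 and Hba-a2 made up 54.9 to 57.9% of globin counts in PRDM13-OE eye cups with dox, within the 46.9 to 64.1% of the other 9. Hba-a2 was 7.96 to 15.9% of the α globin counts, compared with 8.35 to 16.8%. Hbb-bt was 7.84, 6.82 and 2.44% of the β globin counts, below the 8.51 to 13.6% elsewhere. The last difference rests on 16 Hbb-bt counts and on the uncertain division of reads between near copies. In retinas with induced PRDM13, α globin made up 60, 38.5 and 47.4% of globin counts, beside 39.6 to 47.5% in the other 9 retinas. Those 3 shares come from 42 globin counts in all, and Hba-a2 made up 0 of 20 α globin counts.

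Levels can be compared between genes as FPKM, which corrects for transcript length and depth and was deposited by the authors. In untreated wildtype eye cups the order was Hba-a1 (983 ± 1044), Hbb-bs (860 ± 914), Hba-a2 (171 ± 178), Hbb-bt (123 ± 149), Bpgm (16.3 ± 7.22), Alas2 (14.8 ± 19.9), Slc25a37 (3.85 ± 0.844) and Slc4a1 (0.273 ± 0.448), each as mean ± SD in FPKM (n = 3). The SDs, set by the first eye cup, leave no neighbours in this order apart by more than their spread except Slc25a37 and Slc4a1. Without that eye cup, the other two held 435 and 327 FPKM of Hba-a1, 407 and 262 of Hbb-bs, 78.4 and 57.9 of Hba-a2 and 46.9 and 26.6 of Hbb-bt. Their Bpgm was at 12.4 and 11.9 FPKM, Alas2 at 4.87 and 1.80, Slc25a37 at 3.59 and 3.17 and Slc4a1 at 0.0281 and 0. Alas2 was thus below Bpgm in both and on either side of Slc25a37. In PRDM13-OE eye cups with dox the order became Bpgm (13.5 ± 2.87), Hba-a1 (7.39 ± 0.638), Hbb-bs (6.28 ± 0.225), Slc25a37 (2.40 ± 0.331), Hba-a2 (1.14 ± 0.386), Alas2 (1.08 ± 0.561), Hbb-bt (0.424 ± 0.227) and Slc4a1 (0.00352 ± 0.00609), in FPKM (n = 3). Hba-a2 and Alas2 lay within each other's spread there.

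The retina held the same genes at lower FPKM. In untreated wildtype retinas Hbb-bs (25.4 ± 16.5), Bpgm (20.0 ± 1.53) and Hba-a1 (17.1 ± 10.8) led and did not differ beyond their spread (FPKM, SD, n = 3). Hbb-bt (3.55 ± 3.01), Slc25a37 (2.92 ± 0.255), Hba-a2 (1.96 ± 1.06) and Alas2 (0.565 ± 0.453) followed, with no neighbours apart by more than their spread. With induced PRDM13, Bpgm (21.5 ± 1.00) and Slc25a37 (2.47 ± 0.329) stood above Hba-a1 (0.413 ± 0.118), Hbb-bs (0.366 ± 0.200), Hbb-bt (0.120 ± 0.107) and Alas2 (0.0419 ± 0.0201), again in FPKM (SD, n = 3).

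Dox alone and the transgene alone were tested without the PRDM13-OE mice given dox, whose low globin counts led to the choice of genes. The choice was nevertheless made with all 24 libraries known. In the retina, dox in wildtype mice gave log2-fold changes of 0.31 (SE 0.42) for Hba-a1, 0.74 (SE 0.52) for Hba-a2, 0.13 (SE 0.38) for Hbb-bs, 0.01 (SE 0.54) for Hbb-bt and 0.08 (SE 0.49) for Alas2. Their edgeR adjusted p-values lay between 0.723 and 0.995, and the libraries of the groups overlapped for each. Slc25a37 was lower in all 3 wildtype retinas with dox than in all 3 untreated ones, at −0.41 on the log2 scale (SE 0.10), a difference that did not pass adjustment (edgeR adjusted p = 0.265). Of all genes tested, 7.92% were lower without overlap in this comparison and 0.00485% were called higher, with 0% called lower, beside 1922 genes at an unadjusted p under 0.05 and 22 higher and 4 lower calls by DESeq2. Without wildtype dox 3, 122 genes were called higher and 4 lower, and without a filter on low counts 153 and 33. Without dox, PRDM13-OE and wildtype retinas differed by −0.28 to 0.23 on the log2 scale over 7 members, with edgeR adjusted p-values from 0.995 to 0.998. edgeR called 0 genes there, although 778 had an unadjusted p under 0.05 and DESeq2 called 1 higher and 1 lower. At most 2 higher and 2 lower were called with 1 library left out, and 24 higher and 23 lower without a filter on low counts.

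Globins in the eye cup were lower in wildtype mice with dox than in untreated wildtype mice, but not beyond the spread between mice. On the log2 scale Hba-a1 was at −1.93 (SE 0.74, edgeR adjusted p = 0.136), with −1.79 (SE 0.73, edgeR adjusted p = 0.152) for Hbb-bs and −2.11 (SE 1.01, edgeR adjusted p = 0.203) for Alas2. Without untreated wildtype eye cup 1 they were −0.56, −0.41 and 0.07. Bpgm (−0.01, SE 0.28) and Slc25a37 (−0.25, SE 0.19) were closer to 0. edgeR called 0 genes in this comparison, with 6517 at an unadjusted p under 0.05, but it called 1536 higher and 455 lower without untreated wildtype eye cup 1, 359 higher and 571 lower without wildtype dox 3, and 658 higher and 98 lower with library size alone. DESeq2 called 1371 higher and 597 lower, among them 1 member, Hba-a2 (−2.06, DESeq2 adjusted p = 0.0150). Hba-a2 had −2.08 (SE 0.75) and an adjusted p of 0.120 with edgeR. The transgene without dox gave −0.91 (SE 0.76) for Hba-a1, −1.12 (SE 0.71) for Hbb-bs and −1.38 (SE 0.98) for Alas2, each with an edgeR adjusted p of 1.000. These turned to 0.45, 0.24 and 0.77 without the same eye cup. Here edgeR called 0 genes, 404 had an unadjusted p under 0.05, and DESeq2 called 2 higher and 1 lower. Without untreated PRDM13-OE eye cup 1, edgeR called 8 higher and 290 lower.

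**Figure D4:**
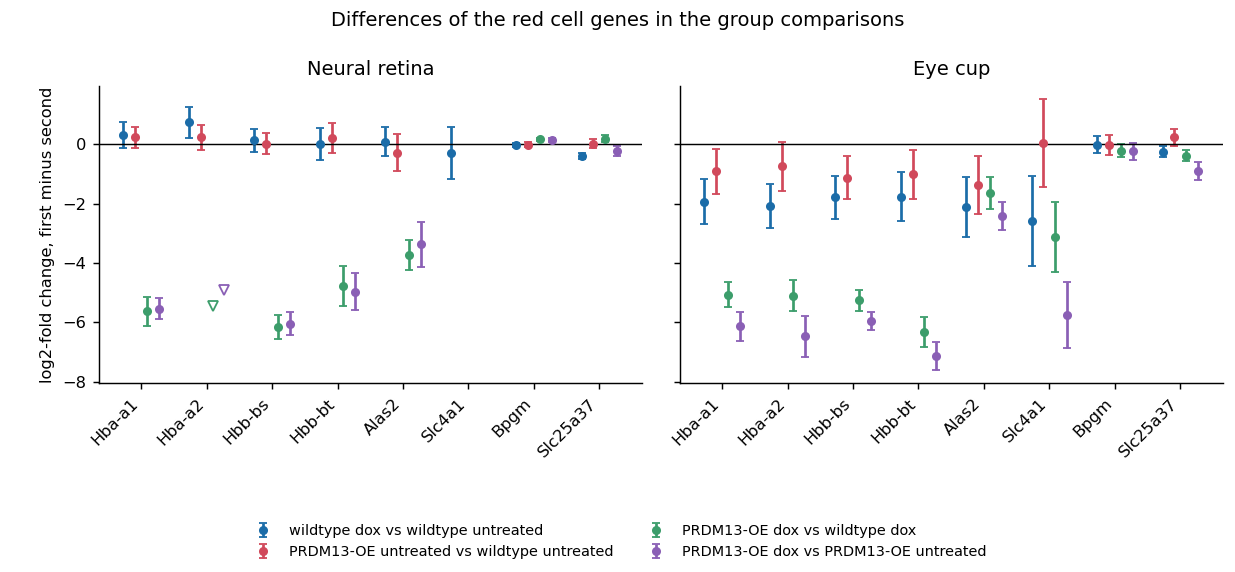
Log2-fold change (first minus second group) of the 8 members in 4 comparisons in retina and eye cup, with SE bars, and open triangles where one group had 0 counts and the value is a bound. The globins lie near −5 to −7 in both comparisons that involve PRDM13-OE mice with dox and near 0 in the retina for dox alone or transgene alone.

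Untreated mice also allowed the tissues to be compared within 6 mice. The eye cup held more of 6 of the 8 members, with log2-fold changes over the retina of 5.09 (SE 0.36, edgeR adjusted p = 4.77e-06) for Hba-a1, 5.67 (SE 0.44, adjusted p = 6.83e-06) for Hba-a2, 4.36 (SE 0.29, adjusted p = 3.15e-06) for Hbb-bs and 4.32 (SE 0.33, adjusted p = 6.85e-06) for Hbb-bt. These correspond to 34.0, 50.8, 20.5 and 20.0-fold. Alas2 was higher by 3.88 (SE 0.43, adjusted p = 5.29e-05) and Slc4a1 by 3.62 (SE 0.96, adjusted p = 0.00948), although Slc4a1 rested on the first wildtype mouse, without which it was at 3.19 with an adjusted p of 0.0641. Of all genes tested, 23.9% were called higher and 18.8% lower in the eye cup. Slc25a37 was higher by 0.48 (SE 0.12, adjusted p = 0.00702), under the fold threshold. Bpgm, at −0.35 (SE 0.16, adjusted p = 0.0889), did not pass and leaned towards the retina. Bpgm and Slc25a37 thus did not share the large tissue difference of the globins, and which cells their reads came from was not tested.

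Retina and eye cup came from the same animals, so the levels of 1 mouse could be set against each other. Over the 9 mice outside the PRDM13-OE dox group, Hbb-bs in the retina and in the eye cup, as log2(CPM + 0.5), had Pearson's r = 0.47 (exact permutation p = 0.210, adjusted 0.359) and Spearman's ρ = 0.28 (exact permutation p = 0.463, adjusted 0.463). For Alas2, r was 0.45 (exact permutation p = 0.225, adjusted 0.359) and Spearman's ρ 0.42 (exact permutation p = 0.270, adjusted 0.359). Adjustment was over these 4 coefficients, and the tests were two-sided. Leaving out the 2 mice farthest from the median gave r of 0.07 for Hbb-bs and 0.35 for Alas2, and leaving out untreated wildtype mouse 1 alone gave 0.02 and 0.01. With each mouse taken as its deviation from its group mean, r was 0.69 for Hbb-bs (permutation p = 0.0370, unadjusted) and 0.58 for Alas2 (permutation p = 0.0959, unadjusted). Spearman's ρ of the deviations was 0.58 for Hbb-bs (permutation p = 0.108) and 0.68 for Alas2 (permutation p = 0.0503), both unadjusted. These deviations were permuted over all 9 mice, although those within a group are tied to one another, so their p-values are approximate. The deviations were not recomputed without untreated wildtype mouse 1, and no relation between the tissues is drawn from them.

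**Figure D5:**
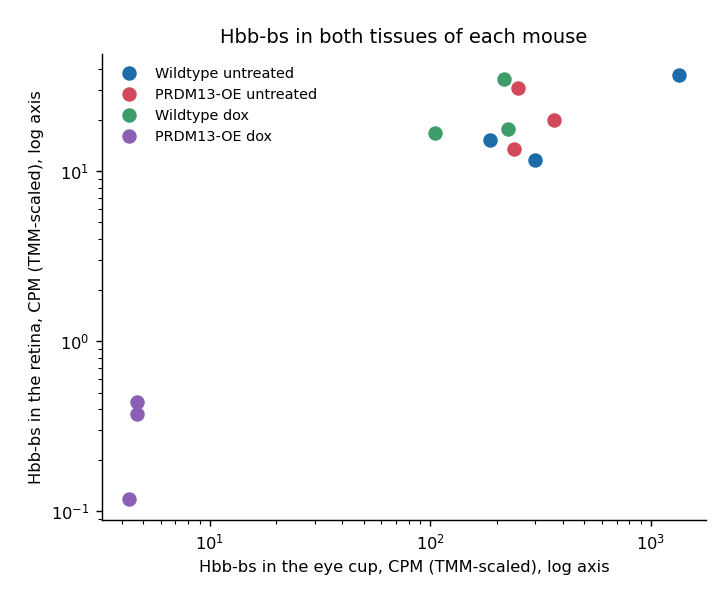
Hbb-bs in the retina against Hbb-bs in the eye cup (CPM, log axes), 1 point for each of 12 mice in 4 groups. The 3 PRDM13-OE mice with dox are low in both tissues, at most 0.440 CPM in the retina and 4.67 CPM in the eye cup, and untreated wildtype mouse 1 is highest in both.

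The other genes of the red cell lineage were counted in the same comparisons. A list of 49 such genes covered haem synthesis, the membrane and its skeleton, erythroid transcription factors and receptors, and reticulocyte maturation. In the retina against wildtype dox, 37 passed the filter, and 1 was called higher and 1 lower, beside 0.905% higher and 1.5% lower of all genes tested. Their median log2-fold change was −0.07, compared with 0.01 over all genes tested. Against untreated PRDM13-OE retinas, 1 of 35 was called higher and 0 lower, beside 0.417% and 0.621% of all genes. With no fold cutoff, 1 of 37 was higher and 9 lower against wildtype dox, beside 5.01% and 7.51% of all genes, and 1 of 35 higher and 4 lower against PRDM13-OE untreated, beside 2.04% and 2.96%. Among eye cups, 0 of 37 were called against wildtype dox and 0 of 39 against PRDM13-OE untreated, where at most 0.0139% of all genes were called in either direction. Without PRDM13-OE dox eye cup 3, 5 of 35 were called lower against wildtype dox and 0 higher, beside 5.74% and 2.58% of all genes. DESeq2 called 1 lower in each eye cup comparison. The 7 further enzymes of haem synthesis, which every cell uses, summed to 188 to 197 CPM in PRDM13-OE retinas with dox and 180 to 202 CPM in the other 9. The 17 genes of the red cell membrane and its skeleton summed to 1184 to 1213 CPM in PRDM13-OE retinas with dox and 1424 to 1615 CPM in the other 9. For the 16 genes of reticulocyte maturation and red cell enzymes the sums were 1460.4 to 1471 and 1671 to 1770.2 CPM. Both sums were lower without overlap, while 0 genes of either group were called against wildtype dox. In untreated mice Epb41 of the first list was at a mean of 865 CPM in the retina and Car2 of the second at 555 CPM, unscaled. Both were lower in the eye cup, by −1.72 (SE 0.15) and −2.48 (SE 0.41) on the log2 scale, where the globins were higher. Ermap, Gypc and Blvrb of these lists were higher there, from 0.515, 0.859 and 4.17 CPM in the retina. The sums are therefore not read as red cell content. The 9 transcription factors and receptors overlapped, at 170 to 189 CPM and 176 to 237 CPM. Neither dox alone nor the transgene alone gave a call on the list in either tissue in the main fits. Other fits of dox alone in the eye cup did. Without untreated wildtype 1, 6 of 34 were higher and 4 lower, beside 7.26% and 2.15% of all genes. Without wildtype dox 3, 3 of 37 were higher and 4 lower, beside 1.69% and 2.69%. DESeq2 called 5 of 39 higher and 4 lower, beside 6.29% and 2.74%. Scaling by library size alone gave 3 of 39 higher there, beside 3.02%. Without a filter on low counts 4 of 45 were higher and 3 lower, beside 2.41% and 1.24%. In the retina that setting gave 1 of 43 higher, beside 0.539%.

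Gata1, the zinc finger factor that directs erythroid and megakaryocyte differentiation, was the gene called higher. It had 10, 4 and 10 counts in PRDM13-OE retinas with dox, 0, 0 and 1 with wildtype dox, 0 in every untreated PRDM13-OE retina and 0, 1 and 1 in untreated wildtype retinas. Gata1 passed the filter of 10 counts in these comparisons through the group in which it was high, so its calls are no support for a difference, and both were lost without PRDM13-OE dox 1 or 3, the first also without wildtype dox 1 or 2. By counts, the level was 23.6-fold higher than with wildtype dox (exact 95% interval 3.86 to 973, counting error only) and at least 7.41-fold higher than in untreated PRDM13-OE retinas when 3 counts over the group are taken as the limit. Eye cup Gata1 counts were 3, 7 and 5 with induced PRDM13 and 3, 0 and 2 with wildtype dox. They were 1, 0 and 0 in untreated PRDM13-OE and 7, 0 and 0 in untreated wildtype mice, and Gata1 was not called in the eye cup.

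Zfpm1, which encodes FOG1, the partner protein of GATA1, was the gene called lower. It was at 13.7, 13.1 and 11.7 CPM in PRDM13-OE retinas with dox and at 26.3, 29.2 and 25.2 CPM with wildtype dox, which is a difference of −1.08 on the log2 scale (SE 0.09, edgeR adjusted p = 1.32e-05). Scaling by library size alone gave −0.99, just inside the fold threshold. Untreated retinas were at 22.3 to 31.8 CPM.

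Between the tissues, 11 of 44 genes of the list were called higher in the eye cup and 9 lower, with a median of 0.19, shares near the 23.9% and 18.8% of all genes tested. Ermap, a red cell membrane protein, was higher by 7.26 (SE 0.29, edgeR adjusted p = 3.94e-07), Alad, the haem synthesis enzyme after Alas2, by 3.48 (SE 0.17, edgeR adjusted p = 8.25e-07) and Gypc, glycophorin C, by 3.43 (SE 0.29, edgeR adjusted p = 1.10e-05). Add2, an adducin of the membrane skeleton that neurons also use, was lower in the eye cup by −3.63 (SE 0.44, edgeR adjusted p = 8.43e-05). Embryonic and minor globins (7 genes) summed to under 1 CPM in every library. The tissue globins Ngb, Cygb, Mb and Adgb together were at 170 to 173 CPM in PRDM13-OE retinas with dox and at 165 to 184 CPM in the other 9, and none was called in a comparison with PRDM13-OE dox. Between the tissues, Mb, myoglobin, was higher in the eye cup by 5.98 (SE 0.43, edgeR adjusted p = 4.77e-06) and Adgb, androglobin, by 4.24 (SE 0.57, edgeR adjusted p = 0.000162). Of 9 genes for haem and iron clearance, 0 were called in any comparison with PRDM13-OE dox, where at most 1.5% of all genes were called in either direction.

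Genes of other blood cells and of the vessels were followed beside the globins. The 12 white cell genes summed to 0.275 to 0.354 CPM in PRDM13-OE retinas with dox, with 7 of the 12 at 0, and to 0 to 0.403 CPM with wildtype dox. Eye cup sums were 1.99 to 4.72 CPM with induced PRDM13, 2.11 to 2.87 with wildtype dox, 3.90 to 11.4 in untreated PRDM13-OE and 5.84 to 9.57 CPM in untreated wildtype mice. White cell transcripts thus overlapped between the genotypes with dox in both tissues, although the retinal sums lay near 0, where overlap says little.

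The 10 platelet genes, transcripts of cells that circulate with red cells, summed to 5.20 to 6.54 CPM in PRDM13-OE retinas with dox (2 of 10 at 0) and 3.06 to 5.06 CPM in wildtype retinas with dox. Eye cups had 11.4 to 26.6 CPM with induced PRDM13 and 9.10 to 15.2 CPM with wildtype dox. Neither range was below that of the wildtype group. Itga2b, the platelet integrin αIIb, was called higher in PRDM13-OE retinas with dox, by 1.27 (SE 0.30, edgeR adjusted p = 0.0166), a call that was lost without PRDM13-OE dox 2 or 3 or wildtype dox 2 (adjusted p up to 0.0733). Itga2b was at a mean of 2.71 CPM there and 1.12 CPM with wildtype dox, a large part of the retinal sums. Pf4 and Ppbp of the same list were at 0.132 and 0.0100 CPM in untreated retinas. The retinal sums are therefore a weak measure of platelets.

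The 13 endothelial genes summed to 267 to 302 CPM in PRDM13-OE retinas with dox and 400 to 508 CPM in the other 9 retinas. Most of that difference in the sum was Kdr, the VEGF receptor 2, which unlike most of the list was also lower in the eye cup than in the retina of untreated mice, by −1.56 on the log2 scale (SE 0.21, edgeR adjusted p = 0.000166). Without Kdr the sums were 175 to 193 CPM and 204 to 253 CPM. Against wildtype dox the median of the 13 was −0.36 on the log2 scale, beside 0.01 over all genes, and 9 of 13 were lower without overlap, beside 15.4% of all genes. Kdr alone was called lower (1.5% and 0.621% of all genes were), at −1.33 on the log2 scale (SE 0.08, edgeR adjusted p = 8.76e-07) against wildtype dox and −1.11 (SE 0.10, edgeR adjusted p = 1.78e-05) against PRDM13-OE untreated. The endothelial sum of the eye cup was 347 to 963 CPM with induced PRDM13 and 587 to 879 CPM with wildtype dox. The part of vessel content in the globin difference was not tested.

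Other markers also differed between these libraries. The 8 lens crystallins summed to 3.22 to 23.8 CPM in PRDM13-OE retinas with dox and to 95.9 to 10730 CPM with wildtype dox, with 8 of 8 called lower. Untreated retinas were at 4.43 to 92.6 CPM in PRDM13-OE and 154 to 773 CPM in wildtype mice, and 1 of 8 was called lower against PRDM13-OE untreated. Of all genes tested, 1.5% were called lower in the retina against wildtype dox and 0.621% against PRDM13-OE untreated, also for the lists below. Without dox, 7 of 8 were lower without overlap in PRDM13-OE than in wildtype retinas, beside 5.18% of all genes, with 0 called. Crystallin sums in the eye cup were 4.97 to 307 CPM with induced PRDM13, 555 to 2832 CPM with wildtype dox, 58.8 to 202 CPM in untreated PRDM13-OE and 186 to 3289 CPM in untreated wildtype mice. There 7 of 8 were lower without overlap against wildtype dox (8.46% of all genes) and 4 of 8 for the transgene alone (3.14%), with 0 called. The 6 genes of sclera and stroma summed to 22.0 to 55.8 CPM in PRDM13-OE retinas with dox, 59.0 to 83.2 CPM with wildtype dox and 11.6 to 102 CPM in untreated retinas, and Fmod, fibromodulin, was called lower against wildtype dox, by −1.15 on the log2 scale (SE 0.27, edgeR adjusted p = 0.0157). Their eye cup sums were 774 to 2051 CPM with induced PRDM13, 1402 to 2333 CPM with wildtype dox and 1359 to 4378 CPM in untreated mice. The 8 RPE genes summed to 91.0 to 115 CPM in PRDM13-OE retinas with dox and 150 to 180 CPM with wildtype dox, and Tyrp1 and Mlana, genes of pigment cells, were called lower. Tyrp1 was at −1.68 on the log2 scale (SE 0.16, edgeR adjusted p = 4.27e-05), and the value of Mlana was −1.92 (SE 0.37, edgeR adjusted p = 0.00569). Untreated retinas spanned both ranges, at 54.5 to 347 CPM. In the eye cup, the RPE genes summed to 6091 to 17854 CPM with induced PRDM13, 8674 to 17542 with wildtype dox and 18864 to 48884 CPM in untreated mice. The part of tissue makeup in the globin values was not tested.

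Likeness to Hbb-bs across libraries is given as a description, without a test. Over the 12 retinas and the 12 eye cups, the mean Pearson's r of log2(CPM + 0.5) with Hbb-bs was 0.995 for Hba-a1, 0.971 for Hbb-bt, 0.961 for Hba-a2, 0.860 for Alas2, 0.472 for Slc25a37 and −0.112 for Bpgm. Slc25a37 was alike in the eye cup (0.807) and not in the retina (0.137). Among 15348 genes with at least 10 counts on average in each tissue, the non-members most like Hbb-bs were Me1 (0.922), Htr3a (0.893), Slc38a3 (0.892), F3 (0.886) and Gdpd5 (0.885). Me1, malic enzyme, was at 74.8 to 83.6 CPM in PRDM13-OE retinas with dox and 146 to 204 CPM in the other 9. Htr3a, a serotonin receptor subunit, was at 0.0549 to 0.945 CPM and 3.22 to 5.64 CPM. These libraries share a group that is low, and a gene low in that group for any reason ranks high by this measure.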

How the data were processed

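Polyadenylated RNA from 24 tissue samples was sequenced on Illumina platforms and mapped to GRCm39 by a sequencing provider for the authors. The submitters' processing notes name CASAVA and HISAT2. The counting tool, the annotation release and whether the libraries were strand-specific are not given in the sources used here. Raw read counts of each gene in each library, deposited by the authors without scaling, were the input to every test. The authors also deposited FPKM values, computed from gene length and read count, which were used to compare levels between genes. Deposited columns of the authors' own comparisons hold mean normalized counts, fold changes and p-values and were not used. Between 15825059 and 24908314 reads were counted per library.

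Pairs of groups were compared with edgeR 4.0.16 in R 4.3.3 (TMM scaling, quasi-likelihood test, 6 libraries per fit) after leaving out genes whose 6 counts summed to under 10. Benjamini-Hochberg adjustment covered all genes tested. A call needed both an adjusted p-value below 0.05 and a log2-fold change beyond 1. The tissues were compared over the 12 untreated libraries with mouse as a block. SEs were derived from the quasi-likelihood F statistic. For genes at 0 counts in a group, bounds took 3 counts over the group, and ratios of few counts have exact 95% intervals, both covering counting error only. Correlations used exact permutation over pairings, which is approximate for deviations from group means. Other computations used python 3.11.15, numpy 2.4.6, pandas 2.3.3 and scipy 1.17.1, and figures used matplotlib 3.10.9.

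The members and all gene lists were chosen with earlier results of these data known. Genes were named by rule: the 9 members, up to 4 called genes of each other list and comparison by size of change, and the 5 non-member genes most like Hbb-bs. Epb41 was named in addition, after seeing the data. Of the called list genes, only those beside which a globin result is read are named. Alternatives were DESeq2 1.42.0, library size in place of TMM, no filter, filterByExpr, robust fitting, a joint fit of the 12 libraries per tissue, the replicate block, no fold cutoff and leaving out each library. Female mice alone was added after seeing the data. On simulated counts for wildtype dox and wildtype untreated, with 200 genes changed by a log2 fold of 2, edgeR called 198 of the 200 and 11 unchanged genes of 20208 tested in the retina, and 159 and 14 of 21147 in the eye cup. No libraries were copies of each other. Labels give separate mice within a group. One marker list for the retina is not reported here.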

Additional observations from a re-analysis of the deposited data

How the results depend on the processing

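In the retina, the count of members called lower with induced PRDM13 was 5 against wildtype dox in each fit with a library left out, and 4 to 5 against PRDM13-OE untreated. The 3 calls of the eye cup depended on the fit. Against wildtype dox they became 0 with all 12 libraries in one fit, 0 with the replicate block and 0 with female mice only, and ranged from 0 to 4 with 1 library left out, with 0 without PRDM13-OE dox 1 or 2 or wildtype dox 2 or 3. Against PRDM13-OE untreated they became 0 with 12 libraries in one fit, 0 with the replicate block and 5 with DESeq2, and ranged from 0 to 4, with 0 without PRDM13-OE dox 1 or 2. The log2-fold changes behind these calls kept their sign, from −6.66 to −4.77 over the globins against wildtype dox. The cause was not tested. DESeq2 called 1 member in the eye cup for dox alone. The tissue comparison gave 5 to 6 calls, and 6 without the mouse block. The correlation of Hbb-bs between tissues ranged from 0.02 to 0.62 and that of Alas2 from 0.01 to 0.67 with 1 mouse left out. Hbb-bs gave 0.69 with deviations from group means (permutation p = 0.0370, unadjusted and approximate).

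Values that changed sign were uncalled ones of dox alone or the transgene alone. With 1 library left out, retinal values for dox alone ranged from −0.30 to 0.94 for Hba-a1, −0.089 to 1.12 for Hba-a2, −0.30 to 0.79 for Hbb-bs, −0.64 to 0.94 for Hbb-bt, −0.27 to 0.96 for Alas2 and −0.089 to 0.018 for Bpgm. For the transgene alone they ranged from −0.10 to 0.87 for Hba-a1, −0.12 to 0.62 for Hba-a2, −0.34 to 0.68 for Hbb-bs, −0.36 to 1.15 for Hbb-bt, −0.65 to 0.60 for Alas2, −0.057 to 0.047 for Bpgm and −0.20 to 0.14 for Slc25a37, which was −0.00150 with the replicate block. In the eye cup, dox alone ranged from −2.63 to 0.069 for Alas2 and −3.16 to 1.77 for Slc4a1, and the transgene alone from −1.35 to 0.45 for Hba-a1, −1.24 to 0.58 for Hba-a2, −1.55 to 0.24 for Hbb-bs, −1.49 to 0.73 for Hbb-bt, −1.90 to 0.77 for Alas2, −0.55 to 4.32 for Slc4a1 and −0.014 to 0.42 for Slc25a37. Each upper end was the value without wildtype untreated 1. Bpgm ranged from −0.19 to 0.41 for dox alone and −0.20 to 0.41 for the transgene alone. With DESeq2 it was 0.0075 and 0.027, with library size 0.17 and 0.024, with the replicate block 0.075 and 0.055, and for dox alone with 12 libraries in one fit 0.028. Same-numbered mice are separate animals whose libraries did not deviate together in every pair, so the numbers were not taken to pair them, and the replicate block changed no other member count.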
